A study of Rattus norvegicus with 6 samples.

Results

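The Fanconi anemia and recombination repair genes described here are Fanca, Fancc, Fancd2, Fancg, Fanci, Fancl, Brca1, Brca2 and Palb2, 9 genes in all. They were followed in rat renal cortex on 1-colour Agilent arrays of 61537 probes that are not controls, and a probe counted for a gene if its RefSeq accession belongs to that gene. This rule found 8 probes for 6 of the 9 genes. Fancc, Fancd2, Fancl, Palb2 and Brca1 had 1 probe each and Brca2 had 3. No probe was matched to Fanca, Fancg or Fanci, which are not analysed here. Brca1 did not pass the filter on dim probes, so 5 of the 9 genes were among the 34915 features tested.

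The Fanconi anemia pathway repairs covalent links between the strands of DNA, lesions that block replication and that aldehydes such as formaldehyde can cause. A core complex, to which Fanca, Fancc, Fancg and Fancl belong, attaches ubiquitin to the Fancd2 and Fanci pair at a stalled fork. Nucleases then cut the link out of one strand, and homologous recombination, in which Brca1, Palb2 and Brca2 act, restores the broken strand. The pathway acts in S phase, and several of its genes are known to be transcribed mainly in dividing cells, which are few in adult kidney.

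DNPT stands for N,N'-dinitrosopentamethylenetetramine, a nitrosamine that can release formaldehyde, dosed at 200 mg/kg/day over 4 weeks in 3 rats. The vehicle group, also 3 rats, received corn oil over the same 4 weeks. All 6 were male Sprague-Dawley rats, bought at 5 weeks of age, on a basal diet, and the design text calls the 3 of each group biological replicates. The comparison asks whether messenger RNA of these repair genes differed in the cortex after dosing. Slide 2, scanned on day 2, held DNPT replicates 2 and 3, while slide 1, scanned on day 1, held DNPT replicate 1 and the 3 vehicle arrays, so only DNPT replicate 1 can be set against vehicle within a slide. Between 42116 and 43402 probes were well above background on the DNPT arrays, against 44730 to 45167 on the vehicle arrays. Precision is limited by having 3 arrays in each group.

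The cortex markers were present on all arrays. The summed signal of the 5 proximal tubule genes, in multiples of the 75th percentile of each array, was 2018 to 2317 in DNPT rats and 1845 to 1927 in vehicle rats. That of the 3 podocyte genes was 30.2 to 37.9 in DNPT rats and 31.0 to 35.5 in vehicle rats, and that of the 2 thick limb genes was 384 to 653 in DNPT rats and 494 to 670 in vehicle rats. None of the 3 adrenal genes passed the filter, and the adrenal enzymes Cyp11b1 and Cyp11b2 were not well above background on any array. The 2 inner medulla genes with a matched probe summed to 1.57, 1.06 and 1.19 in DNPT replicates 1 to 3, and to 1.06 to 1.07 in vehicle rats. Of these, Aqp4 had a change of 0.61 (limma adjusted p = 0.38) and Slc14a2 one of -0.26 (limma adjusted p = 0.41), each without overlap between groups. Such a lack of overlap was found in 11.9% of all features with DNPT higher and in 8.32% with DNPT lower. Red cell genes lay at 376 to 416 in DNPT rats and 281 to 351 in vehicle rats. The sum of 3 lymphocyte genes (Cd2, Cd3d and Cd3e) was 0.718 to 0.888 in DNPT rats and 0.996 to 1.09 in vehicle rats. Nearly all of it was Cd3d, with a mean log2 signal of -0.18, against -5.71 for Cd2 and -5.95 for Cd3e. Cd2 was well above background on 0 DNPT arrays and Cd3e on 1, against 3 vehicle arrays each. Cd79b, a B cell gene left out of that sum because its DNPT replicate 2 value carries an outlier flag in the deposited file, lay the other way: its log2 signal was -3.65 and -4.06 in DNPT replicates 1 and 3, against -5.25, -4.95 and -4.78 in vehicle rats (change 1.14, SE 0.20, limma adjusted p = 0.29). The ranges of the red cell, lymphocyte and proximal tubule sums did not overlap between groups. The part of these shifts in the values of the repair genes was not tested, and in whole cortex fewer cells of a type and less RNA per cell cannot be told apart.

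How far a probe stood above its surroundings differed among the repair genes. The Fancc spot was 21.3 to 28.0 times its local background in DNPT rats and 18.6 to 20.3 times in vehicle rats, and the Fancl spot was 19.4 to 22.5 times in DNPT rats and 17.0 to 23.3 times in vehicle rats. The main Brca2 probe stood at 6.52 to 6.87 times background in DNPT rats and 6.20 to 7.40 times in vehicle rats. Palb2 was closer to background, at 3.18 to 5.03 times in DNPT rats and 3.17 to 4.74 times in vehicle rats. Fancd2 was closer still, at 2.02 to 3.00 times in DNPT rats and 1.88 to 2.42 times in vehicle rats. The Brca1 spot was at 1.08 to 1.60 times its background in DNPT rats and 0.889 to 1.18 times in vehicle rats. It was not well above background on any of the 6 arrays, and no fold is given for it. This ratio also depends on the background of the slide, which for these probes was lower on slide 2, so it serves only to show detection.

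**Figure D1:**
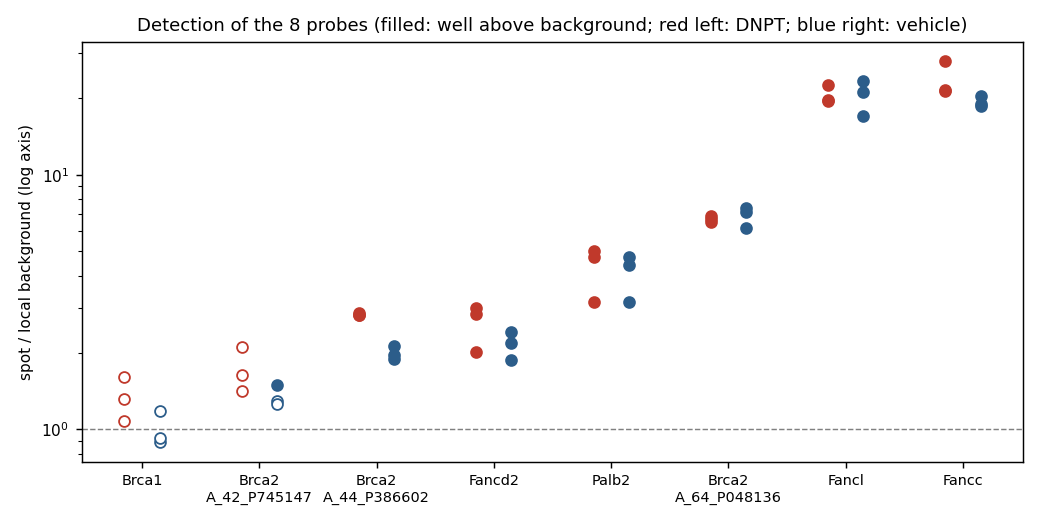
Spot signal over local background on a log axis for each of the 8 probes, with 1 point per array, DNPT in red on the left and vehicle in blue on the right. Open points were not well above background: all 6 of Brca1 and 5 of the 6 of the Brca2 probe A_42_P745147, while the other 6 probes are filled throughout.

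Among the genes tested, Fancc had the smallest p. Fancc is an adaptor of the core complex. Its log2 signal relative to the 75th percentile of the array was -0.30, -0.31 and -0.05 in DNPT replicates 1 to 3, against -0.52, -0.53 and -0.46 in vehicle replicates 1 to 3. The lowest DNPT value exceeded the highest vehicle value. The mean was -0.22 ± 0.15 in DNPT rats and -0.50 ± 0.04 in vehicle rats (SD, n = 3 each), a change of 0.28 (SE 0.10), or 1.22-fold with a 95% interval of 1.02 to 1.45. In limma's fit across all features the unadjusted p was 0.034 and the adjusted p 0.40, so the change did not pass. DNPT replicate 1 lay 0.20 above the vehicle mean, DNPT replicate 2 lay 0.19 above it and DNPT replicate 3 lay 0.45 above it, so the only DNPT array of slide 1 showed the same direction. That difference of 0.20 within slide 1 comes from 1 DNPT rat, so it carries no measure of the spread among DNPT rats.

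The Fancc difference appeared with the scaling of the arrays. As deposited, its processed signal averaged 876 ± 100.2 units in DNPT rats and 879 ± 36.3 in vehicle rats, a difference far within the spread between rats. The 75th percentile of the whole array was 953 to 1112 units on DNPT arrays and 1164 to 1329 on vehicle arrays, so Fancc kept its brightness on arrays that were dimmer as a whole. Without scaling, the median change of all features was -0.28 and that of Fancc -0.0094, or 0.27 above that median.

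Fancl carries the ubiquitin ligase activity of the core complex. Its log2 signal was -0.10, -0.42 and -0.51 in DNPT rats, against -0.43, -0.31 and -0.45 in vehicle rats. DNPT replicate 1 was the highest of the 6 arrays and DNPT replicate 3 the lowest, so the groups overlapped. The change was 0.05 (SE 0.13, limma adjusted p = 0.88), or 1.04-fold with a 95% interval of 0.831 to 1.30. The sign rested on DNPT replicate 1: without that array the change was -0.068.

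Fancd2 is the protein to which the core complex attaches ubiquitin. Its log2 signal was -4.34, -4.00 and -4.05 in DNPT rats, against -4.97, -4.61 and -4.17 in vehicle rats. Vehicle replicate 3 lay above DNPT replicate 1, and the groups overlapped through that pair alone. The mean was -4.13 ± 0.18 in DNPT rats and -4.58 ± 0.40 in vehicle rats (SD, n = 3 each). Its change of 0.45 (SE 0.22, limma unadjusted p = 0.089, adjusted p = 0.45) was the largest in size among the 5 genes, but the 95% interval of the fold ran from 0.936 to 2.00. Leaving out vehicle replicate 1 gave a change of 0.26 and leaving out vehicle replicate 3 gave 0.66, and DNPT replicate 1 against the vehicle mean gave 0.24. The processed signal of this dim probe was 54.9 to 60.1 units in DNPT rats and 39.7 to 64.6 units in vehicle rats. After normexp background correction, which pulls dim signals together, the change was 0.16.

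**Figure D2:**
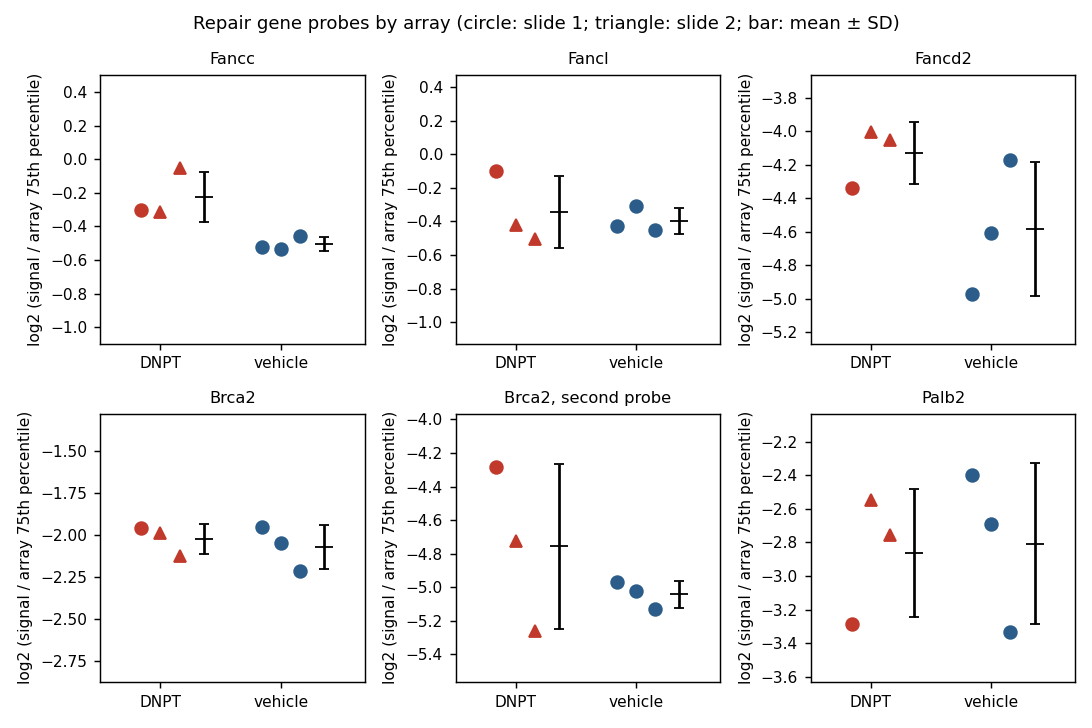
Log2 signal relative to the 75th percentile of the array for 6 probes, with DNPT at the left and vehicle at the right of each panel, circles for slide 1, triangles for slide 2, and bars for the mean ± SD of 3 rats. Each panel spans the same number of log2 units, and only the Fancc panel has all DNPT points above all vehicle points.

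Brca2 is a mediator of homologous recombination. Its brightest probe, A_64_P048136, had a log2 signal of -1.96, -1.99 and -2.13 in DNPT rats, against -1.95, -2.05 and -2.21 in vehicle rats. These values interleaved almost completely. The change was 0.05 (SE 0.10, limma adjusted p = 0.86), or 1.03-fold with a 95% interval of 0.865 to 1.23. Without vehicle replicate 3 the change was -0.024.

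The other Brca2 probes were dimmer. Probe A_44_P386602, well above background on all 6 arrays, was at -4.28, -4.73 and -5.26 in DNPT rats, against -4.97, -5.02 and -5.13 in vehicle rats. Its DNPT values spread over both sides of the vehicle values, with an SD of 0.49 among DNPT rats against 0.08 among vehicle rats. Its change was 0.28 (SE 0.25, limma adjusted p over all probes 0.65). Probe A_42_P745147 was well above background only in vehicle replicate 1 and was not tested. The probes of Brca2 therefore gave no difference that exceeded the spread between rats.

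Palb2 joins Brca1 to Brca2. Its log2 signal was -3.29, -2.55 and -2.76 in DNPT rats, against -2.40, -2.69 and -3.33 in vehicle rats. Each group held 1 low array, DNPT replicate 1 and vehicle replicate 3, and the SD was wide, 0.38 in DNPT rats and 0.48 in vehicle rats. The change was -0.06 (SE 0.30, limma adjusted p = 0.95), and the 95% interval of the fold, from 0.574 to 1.61, is wide enough to hold sizeable changes either way. Without DNPT replicate 1 the change was 0.16, and without vehicle replicate 1 it was 0.15.

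Brca1, a ubiquitin ligase with Bard1 that promotes the resection of broken ends, gave processed signals of 8.19, 3.80 and 16.7 units in DNPT rats, against 3.88, 4.23 and 7.64 units in vehicle rats. All 6 values were too dim to be told from background. Its level in cortex was therefore not measurable with this probe, in either group.

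Of the 5 genes tested, 4 changes were positive and 1 was negative, where 51.9% of all features had a positive change. At an adjusted p under 0.05, limma called 0 of the 5 in either direction (0% of all features). At an unadjusted p under 0.05 it called 1 higher, Fancc, and 0 lower, where 5.95% and 6.16% of all features were called, 12.1% in either direction. Fancc was also the only gene whose groups did not overlap, with DNPT higher, as in 11.9% of all features. A count of 1 among 5 genes is too small to be set apart from these shares. The median change of the 5 was 0.05, beside 0.01 for all features tested and 0.04 for all named genes tested. Taken array by array against the vehicle mean, the median of the 5 genes was 0.20 for DNPT replicate 1, 0.19 for DNPT replicate 2 and 0.05 for DNPT replicate 3. Within slide 1, where DNPT replicate 1 is the only DNPT array, the difference was 0.30 for Fancl, 0.24 for Fancd2, 0.11 for Brca2 and -0.48 for Palb2. The spread among DNPT rats is not measured there, so no p-value is given.

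**Figure D3:**
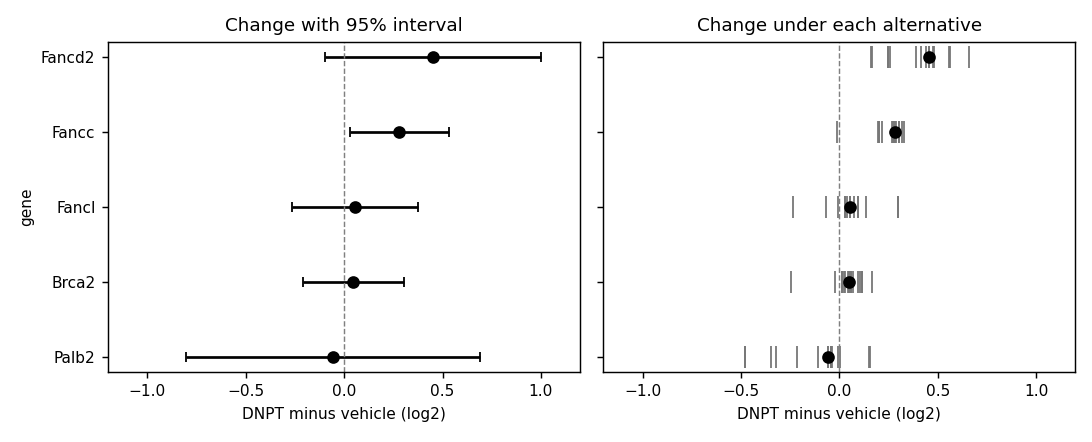
DNPT minus vehicle on the log2 scale for the 5 genes tested. The left panel gives the change with its 95% interval, of which only that of Fancc leaves out 0. The right panel adds a grey tick for each of 19 alternatives, which lie above 0 throughout for Fancd2 and on both sides of 0 for the other 4 genes, for Fancc through the fit without scaling alone.

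The promoters of Fancc and Fancd2, the genes with the largest changes, and of Fancl are shown because they hold letters of the E2F motif. E2F factors drive many genes of S phase. The sequences are those of RefSeq on rat build GRCr8, 250 bases before to 50 bases after a start site, 5′ to 3′ on the gene's strand, with the motif in capitals. The windows are chr17:1686839-1687138 for Fancc, chr4:148234458-148234757 for Fancd2 and chr14:104450737-104451036 for Fancl, each on the plus strand.
Fancc: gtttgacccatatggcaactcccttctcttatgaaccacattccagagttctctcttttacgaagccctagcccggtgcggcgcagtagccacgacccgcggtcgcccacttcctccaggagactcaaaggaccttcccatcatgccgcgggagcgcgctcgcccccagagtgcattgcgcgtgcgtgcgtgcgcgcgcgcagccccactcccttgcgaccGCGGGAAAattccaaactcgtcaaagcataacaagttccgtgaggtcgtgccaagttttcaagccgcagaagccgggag
Fancd2: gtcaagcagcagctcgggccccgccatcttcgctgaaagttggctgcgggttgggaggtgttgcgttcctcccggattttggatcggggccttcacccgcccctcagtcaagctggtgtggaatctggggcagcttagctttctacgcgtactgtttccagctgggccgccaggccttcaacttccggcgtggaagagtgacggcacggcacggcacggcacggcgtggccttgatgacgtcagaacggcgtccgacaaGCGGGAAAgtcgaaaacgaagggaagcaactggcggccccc
Fancl: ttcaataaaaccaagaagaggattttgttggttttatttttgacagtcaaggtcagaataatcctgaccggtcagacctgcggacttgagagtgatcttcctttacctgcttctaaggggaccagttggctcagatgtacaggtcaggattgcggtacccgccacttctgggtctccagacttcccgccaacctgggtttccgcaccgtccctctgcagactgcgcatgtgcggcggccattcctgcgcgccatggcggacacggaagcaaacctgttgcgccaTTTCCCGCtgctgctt

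The E2F motif was searched on both strands as TTTGGCGC, TTTCCCGC, TTTGCCGC or TTTCGCGC. It occurred in 3 of the 9 promoters, once in each, and in 2.14% of all 33469 RefSeq promoter windows. In Fancc and Fancd2 it reads GCGGGAAA on the printed strand, from position -29 in Fancc and from position 10 in Fancd2, counted from the start site as 1, and in Fancl it reads TTTCCCGC from position 35. The NF-Y box CCAAT was in 3 of the 9 promoters (those of Brca1, Fanca and Palb2) and in 37.5% of all, and the CHR motif TTTGAA was in 1, that of Fanci, and in 18.3% of all. No promoter of the 9 held more than 1 of the 3 motifs. Such a match describes letters and does not show that a factor binds there. The GC content of the 9 promoters ran from 53.67% to 63%, against a median of 51.67% over all promoters. The motif shares were not compared among promoters of like GC content.

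The other genes of the pathway were followed through lists of 61 repair genes, of which 40 had a matched probe and 38 were tested. Of the 38, 27 changes were positive and 11 negative, with a median of 0.05. A positive change was found in 51.9% of all features and in 7231 of the 12687 named genes tested. limma called 0 in either direction over all features. At an unadjusted p under 0.05 it called 2 higher and 0 lower, where 5.95% and 6.16% of all features were called. In 8 of the 38 the groups did not overlap with DNPT higher, and in 0 with DNPT lower, where 11.9% and 8.32% of all features did so. Of the 12687 named genes tested, 1880 did so with DNPT higher and 937 with DNPT lower. The directions depend on scaling and on the arrays used. Without scaling, 0 of the 6 core genes and 0 of the 9 deubiquitination, unhooking and bypass genes had a positive change. So did 1 of the 17 recombination genes and 1 of the 6 checkpoint genes, where the median of all features was -0.28. Within slide 1, which holds 1 DNPT array, 4 of the 6 core and 5 of the 9 deubiquitination, unhooking and bypass genes were positive. There 8 of the 17 recombination genes and 3 of the 6 checkpoint genes were positive.

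Of the core complex and its partners, 6 of 10 genes were tested, and all 6 had positive changes between 0.01 and 0.18 (median 0.10), with none at an unadjusted p under 0.05. Within slide 1, and also without DNPT replicate 2 or with the mean over all probes of a gene, 4 of the 6 were positive. Faap20, which holds the core complex at damaged DNA, averaged 1.25 ± 0.13 in DNPT rats and 1.07 ± 0.14 in vehicle rats (log2 signal, SD, n = 3 each). Its groups overlapped, and the change was 0.18 (SE 0.12, limma adjusted p = 0.53). Cenps, a histone fold partner of Fancm, had a change of 0.11 (SE 0.10, limma adjusted p = 0.67). Ube2t, the ubiquitin-conjugating enzyme that works with Fancl, had a change of 0.10 (SE 0.43) and varied widely, from -3.96 to -2.29 in DNPT rats and from -3.50 to -2.94 in vehicle rats.

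Of the genes for deubiquitination, unhooking and lesion bypass, 9 of 14 were tested, 7 with positive and 2 with negative changes (median 0.02). None reached an unadjusted p under 0.05. In 2 of the 9, Dclre1a and Slx1b, the DNPT values lay above the vehicle values without overlap, as in 11.9% of all features. Dclre1a, a nuclease that digests past a crosslink, was at 1.81, 1.98 and 1.75 in DNPT rats, against 1.47, 1.56 and 1.72 in vehicle rats. The highest vehicle value lay just under the lowest DNPT value, and the change was 0.26 (SE 0.11, limma adjusted p = 0.42). Ercc1, part of the nuclease that makes the unhooking cut, had a change of 0.05 (SE 0.08, limma adjusted p = 0.80). Usp1, which removes ubiquitin from Fancd2, had a change of 0.0019 (SE 0.10), with overlapping groups.

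Recombination genes moved neither way on balance. Of 28, 17 were tested, 9 with positive and 8 with negative changes (median 0.01). At an unadjusted p under 0.05 limma called 1 higher, Rad54b, and 0 lower, where 5.95% and 6.16% of all features were called. Rad54b, a motor protein of homologous recombination, was at -4.78, -5.21 and -5.61 in DNPT rats, against -5.68, -5.75 and -5.97 in vehicle rats. The groups did not overlap, and the change was 0.60 (SE 0.22, limma adjusted p = 0.40), but the probe was well above background on only 2 of 3 arrays in each group. Within slide 1 the Rad54b change was 1.02, from 1 DNPT rat, and over 18 alternatives it ran from 0.15 to 1.02. Bard1, the partner of Brca1, had a change of -0.17 (SE 0.15), with overlapping groups.

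Among checkpoint and single strand binding genes, 6 of 9 were tested, 5 with positive changes and 1 with a negative change (median 0.08). Rpa2, a subunit of the protein that coats single-stranded DNA, was the only one at an unadjusted p under 0.05. Of all features, 5.95% were called higher and 6.16% lower at that level. Rpa2 was at -0.04, 0.24 and 0.26 in DNPT rats, against -0.24, -0.17 and -0.05 in vehicle rats. The groups did not overlap, by a margin that is narrow in DNPT replicate 1, and the change was 0.31 (SE 0.12, limma adjusted p = 0.40). Within slide 1 the Rpa2 change was 0.12. Atm, the kinase that responds to double-strand breaks, had the lowest change of the list, -0.60 (SE 0.28, limma adjusted p = 0.44), with values that overlapped.

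**Figure D4:**
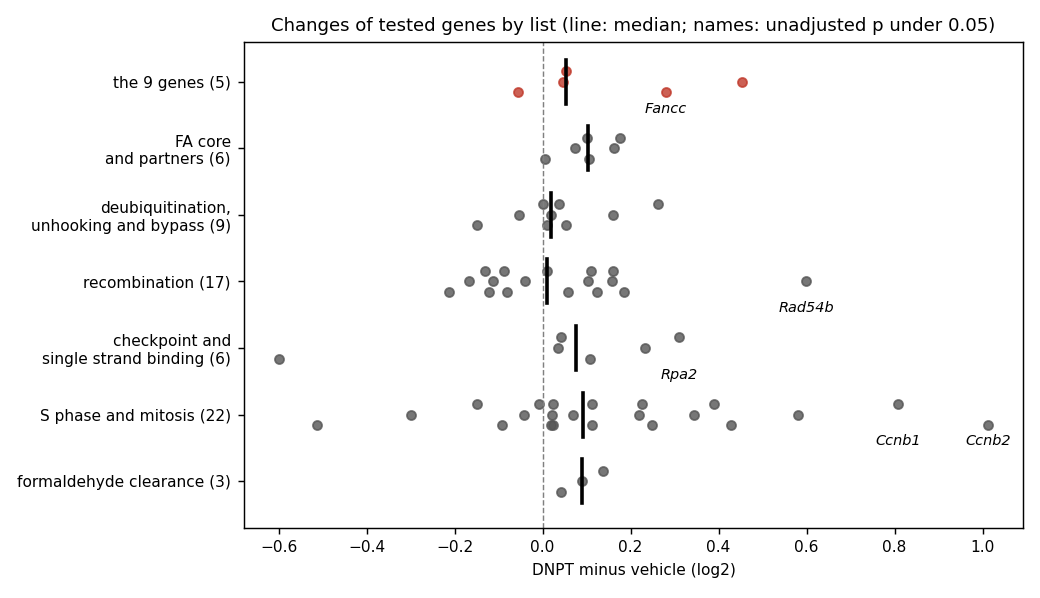
DNPT minus vehicle on the log2 scale for each tested gene of the 9 and of 6 related lists, with the number tested in brackets, a black line for the median and names for genes at an unadjusted p under 0.05. Medians of all lists lie between 0.01 and 0.10, and the S phase and mitosis list has the widest spread, from -0.51 to 1.01.

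Because the repair genes are tied to the cell cycle, 25 genes of S phase and mitosis were set beside them, of which 22 were tested. Changes were positive in 16 and negative in 6 (median 0.09), and 2 were called higher and 0 lower at an unadjusted p under 0.05, where 5.95% and 6.16% of all features were called. Without DNPT replicate 3 the number higher was 9, where 2850 of the 34915 features were at that level in either direction. Without scaling 6 of the 22 changes were positive. The 2 genes called higher in the main fit were the mitotic cyclins Ccnb2 and Ccnb1. Ccnb2 had a change of 1.01 (SE 0.12, limma adjusted p = 0.17) and Ccnb1 one of 0.81 (SE 0.25, limma adjusted p = 0.39). Ccnb1 was at -2.15, -1.75 and -2.66 in DNPT rats, against -3.26, -2.90 and -2.83 in vehicle rats, and in both cyclins the DNPT values lay above the vehicle values. Ccnb2 averaged -2.09 ± 0.13 in DNPT rats, against -3.10 ± 0.14 in vehicle rats (SD, n = 3 each). Without DNPT replicate 1 its limma adjusted p was 0.032, the only call of this list in 19 alternatives. That fit called 623 of all features, against 0 in the main fit. It sets DNPT arrays of slide 2 against vehicle arrays of slide 1, so group and slide cannot be told apart there.

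Markers of dividing cells varied among the arrays. Mki67, a protein of cycling cells, was at 0.12, 0.53 and -0.35 in DNPT rats, against -0.43, -0.20 and -0.10 in vehicle rats (limma adjusted p = 0.55). Cdk1, the mitotic kinase, was at 0.73, 1.39 and 0.10 in DNPT rats, against -0.0052, 0.41 and 0.53 in vehicle rats (limma adjusted p = 0.61). In both, DNPT replicate 2 was the highest array, as for Fancd2 and Ccnb1, and DNPT replicate 3 lay among the vehicle values. Ccnb2 was highest in DNPT replicate 3, as Fancc was. The part of dividing cells in the values of the repair genes was not tested. The summed signal of the 6 dividing cell markers with a probe was 3.28 to 6.56 in DNPT rats and 3.20 to 4.04 in vehicle rats, in multiples of the 75th percentile. Pcna, the replication clamp, had a change of -0.04 (SE 0.11), and E2f1, the transcription factor, a change of -0.30 (SE 0.12, limma adjusted p = 0.42) with the 3 DNPT values under the lowest vehicle value.

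The enzymes that clear formaldehyde, the aldehyde behind the choice of this pathway, had small changes. Of these 3 of 3 were positive, against 1 of 3 within slide 1 and 0 of 3 without scaling, where 51.9% of all features had a positive change in the main fit. Aldh2 had a change of 0.14 (SE 0.09, limma adjusted p = 0.53), and of 0.048 within slide 1, from 1 DNPT rat. Its DNPT values lay above the vehicle values without overlap, as in 11.9% of all features. Adh5, which oxidises formaldehyde bound to glutathione, had a change of 0.09 (SE 0.09, limma adjusted p = 0.68). Esd, which completes that step, had one of 0.04 (SE 0.08, limma adjusted p = 0.83).

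The genes most like Fancc over the 6 arrays, among 5387 named genes whose SD over the arrays was at least 0.2, were Tmem120a, Sts and Tnfrsf17, with a Pearson r of 0.996, 0.992 and 0.991. These values are a description: the 6 arrays share 2 groups and 2 slides, and 36 genes had an r over 0.95. Tmem120a, a membrane protein, was at 2.51, 2.53 and 3.01 in DNPT rats, against 2.00, 2.00 and 2.20 in vehicle rats. It was highest in DNPT replicate 3, as Fancc was. Tnfrsf17 was not well above background on any vehicle array.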

How the data were processed

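Per the labels' protocols, the RNA was amplified and labelled with Cy3 before 1-colour hybridisation. Per the file headers, Agilent Feature Extraction 10.7.1.1 made the processed signal, a background-corrected intensity on a linear scale, deposited by the authors for each spot. The authors also deposited a table of values, each a linear ratio. Each of its columns equalled the processed signal divided by 1 factor near the 75th percentile (100% of values over 0.1 within 0.5%), with no centring and with column medians of 0.112 to 0.116. The sources used here do not say how the authors made it.

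Control spots and 113 values with outlier flags were left out. Processed signals were taken to log2, and the 75th percentile of each array was subtracted. Accessions were matched without versions to RefSeq genes of GRCr8, for names: 28206 probes matched 1 gene, 0 several and 33331 none. A probe was tested if well above background on at least 3 arrays with at least 2 values per group. The brightest such probe stood for a gene, and unnamed probes for themselves. lmFit and eBayes of limma 3.58.1 (R 4.3.3) compared DNPT with vehicle, in a two-sided test with no covariates, and p-values were adjusted by Benjamini-Hochberg across the 34915 features, with a threshold of 0.05. The test was tried on 5 simulated sets of 34915 features with 200 true changes each. It found 44.6% of true changes of size 1 (log2) and 78.8% of those of size 2, with 7.8 false calls on average. The simulated noise was independent between features and held no slide difference, so these rates may not carry over to the real arrays. The real changes of the repair genes tested were smaller than either size.

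One gene of the recombination list is not reported here. The genes and lists were chosen with earlier results of these data known. The text names all 9 genes, up to 4 genes per list by unadjusted p under 0.05 or else its 2 brightest, Mki67, Cdk1, Pcna and E2f1 (Top2a had no matched probe), and the 3 genes most like the one of smallest p. Ube2t, Usp1, Slx1b, Bard1, Atm, Adh5, Cd79b, Aqp4 and Slc14a2 were named after their values were seen. Motifs were matched exactly with Python 3.11.15.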

Additional observations from a re-analysis of the deposited data

How the results depend on the processing

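None of the 5 genes was called at an adjusted p under 0.05 in any of 19 alternatives, in which the lowest adjusted p was 0.21 for Fancc and 0.26 for Fancd2. Fancd2 stayed positive in all 19 (0.16 to 0.66) and Fancc in 18 (0.20 to 0.33). The exception was the fit with no scaling between arrays, added after seeing the data, where the median of all features fell by 0.28, Fancc was at -0.0094, Fancl at -0.24, Brca2 at -0.24 and the median of the 5 genes at -0.24, with 1 positive change, 0 genes at an unadjusted p under 0.05 and 0 without overlap. The Fancl change was -0.0051 with array weights. Leaving out 1 array gave -0.068 to 0.14 for Fancl, -0.024 to 0.11 for Brca2, -0.32 to 0.16 for Palb2, 0.26 to 0.66 for Fancd2 and 0.20 to 0.33 for Fancc, a median of 0.03 to 0.16, 3 to 5 positive changes, 0 to 1 genes at an unadjusted p under 0.05 and 1 to 2 without overlap. The Fancc p rose above 0.05 without DNPT replicate 3 or any 1 of the vehicle replicates. The number of genes at that level, 1, was 0 with normexp and with a block for slide, and 2 with array weights. The median was 0.20 on slide 1 alone and with slide as a block, both resting on DNPT replicate 1. It was 0.17 with no filter on dim probes, which adds Brca1. Overlap is not counted on slide 1 alone, where 1 DNPT value stands for the group. Over all features, 5 were called with normexp, 1 with slide as a block, 1 without scaling and 0 to 623 with 1 array left out, the 623 without DNPT replicate 1. That fit leaves DNPT on slide 2 alone and vehicle on slide 1 alone, so group and slide cannot be told apart in its calls. The 4227 features at an unadjusted p under 0.05 became 8737 with no filter, 6525 with array weights, 2393 with a block for slide, 2710 within slide 1, 9791 without scaling and 2541 to 7281 with 1 array left out. The deviations of same-numbered DNPT and vehicle arrays from their group means had an r of -0.18, -0.06 and -0.18. With 3 arrays per group these values cannot show whether the replicate number pairs animals, which the design text does not state. With the replicate block in limma, 0 of the 5 genes were called and 1, Fancd2, was at an unadjusted p under 0.05. The limma p-values for Fancd2 were then 0.043 unadjusted and 0.55 adjusted, and those for Fancc 0.053 and 0.55. The cause of these differences was not tested. Signal near background limits Brca1, Fancd2 and Palb2.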
